A study of Homo sapiens with 16 samples.

Results

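The regions described here are ChIP-Seq peaks that were called in wild-type or POLK-/- cells and have no counterpart in the list of DDX23-/- cells. Peaks of the wild-type and POLK-/- lists were pooled, overlapping peaks were merged, and a merged region was counted as absent when no DDX23-/- peak shared at least 1 bp with it. This held for 287 of 2788 merged regions, or 10.3% (95% interval 9.19 to 11.5%), and the other 2501 regions are called kept. The members were thus chosen by the deposited peak calls themselves, so their number and their absence are a description and not a test.

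The cells are HEK293T, a human embryonic kidney line. The 3 genotypes are unedited cells (WT), POLK-/- cells and DDX23-/- cells, all untreated, and 1 peak list was analysed for each. The labels give Polk as the antibody, the protocol in them names an anti-FLAG gel, and no tag is mentioned for these cells, so the protein pulled down is uncertain. In the POLK-/- cells the gene for the protein named on the antibody label is itself knocked out, and 2451 peaks were nevertheless listed. The labels name neither the clones nor how the knockouts were made, and the numbers inside the peak names do not always match the sample numbers, so it is uncertain which of the libraries of a genotype gave its list. The lists hold 1468 wild-type, 2451 POLK-/- and 5945 DDX23-/- peaks. With 1 list per genotype there is no replicate, so neither the genotypes nor the differences between absent and kept regions were tested, and the intervals cover the counting of peaks only.

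POLK encodes DNA polymerase kappa, a translesion polymerase that copies past bulky adducts on guanine. DDX23 encodes a DEAD-box RNA helicase of the U5 small nuclear ribonucleoprotein, which takes part in splicing. In ChIP-Seq a peak is a place where DNA fragments from the pulldown pile up above the local background, and open promoters with high GC content are places where such pile-ups are common.

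A smaller share of the absent than of the kept regions lay at protein-coding gene starts. Among regions found only in the wild-type list, 25 of 101 absent regions lay at a protein-coding gene start (a start within 1 kb; 24.8%, 95% interval 16.7 to 34.3%), against 189 of 238 kept regions (79.4%, 73.7 to 84.4%). Among regions found only in the POLK-/- list the shares were 81 of 180 (45%, 37.6 to 52.6%) and 882 of 1156 (76.3%, 73.7 to 78.7%). With starts of all annotated genes counted, 30 of 101 absent wild-type-only regions (29.7%) and 102 of 180 absent POLK-/- only regions (56.7%) lay at a start, so most of the latter did, against 87.0% and 84.1% of the kept ones. Introns held 33.7% of the absent wild-type-only regions and 6.72% of the kept ones, and intergenic positions held 24.8% and 1.68%. For POLK-/- only regions introns held 21.7% against 5.54%, and intergenic positions 16.7% against 4.67%. Peaks found only in the DDX23-/- list resembled the kept regions in this respect, with 2545 of 3447 at a protein-coding start (73.8%).

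**Figure D1:**
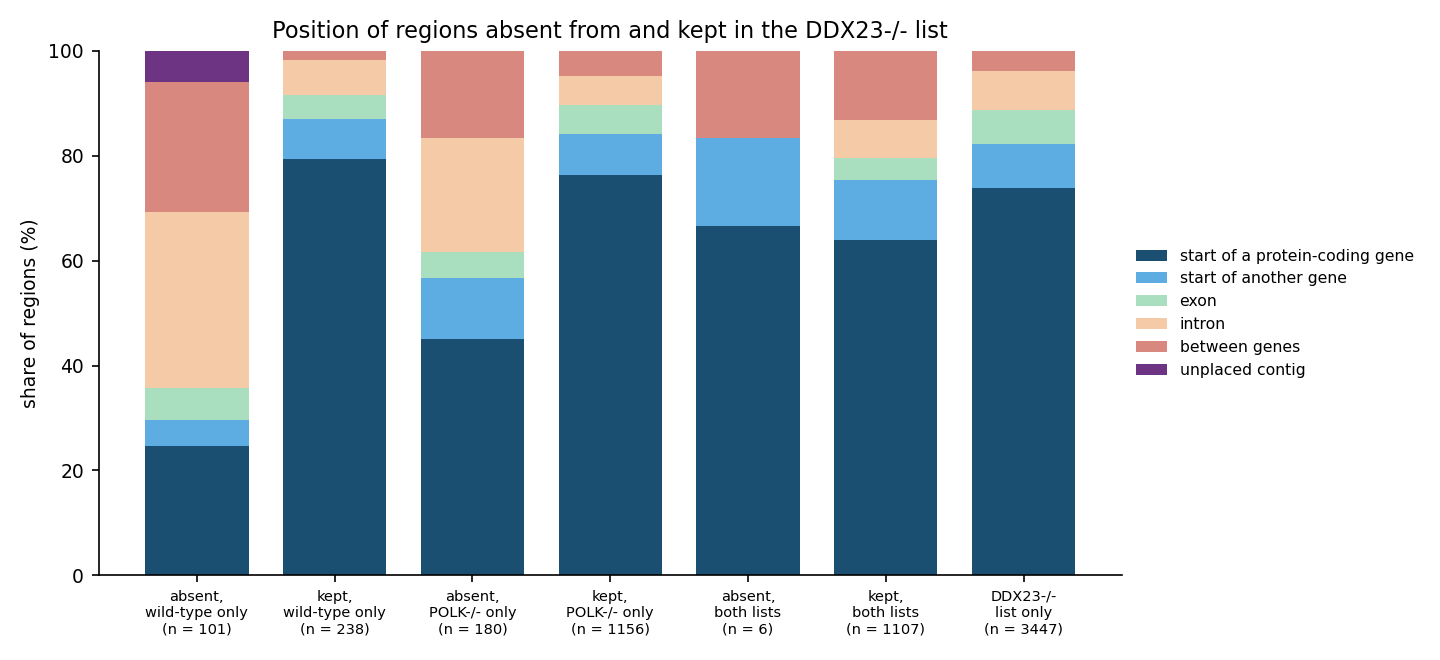
Share of regions (%) in each annotated position, for absent and kept regions by list of origin and for peaks of the DDX23-/- list alone. The dark blue part, regions within 1 kb of a protein-coding start, is 24.8% and 45% in the absent regions of the wild-type and POLK-/- lists, against 79.4% and 76.3% in the kept ones.

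Strong absent regions were of different kinds, from simple repeats to sequence found at 1 place only. The sequences at the summits of 3 of the strongest members are shown here for that reason, read from the plus strand of GRCh37 with 50 bases on either side of the summit. The first 2 are from the wild-type list, on a contig with ribosomal DNA and on chromosome 11, and the last is from the POLK-/- list.
chrUn_gl000220:120956-121056: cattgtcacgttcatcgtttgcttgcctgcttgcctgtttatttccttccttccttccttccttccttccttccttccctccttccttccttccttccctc
chr11:3235931-3236031: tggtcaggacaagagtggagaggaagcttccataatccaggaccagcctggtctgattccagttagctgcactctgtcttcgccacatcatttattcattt
chr9:100499953-100500053: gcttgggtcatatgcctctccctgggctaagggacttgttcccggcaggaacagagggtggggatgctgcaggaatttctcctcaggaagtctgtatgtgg
The first is largely a run of cttc units, whereas the last held no stretch of 31 bases that occurs elsewhere in the genome.

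Absence was unevenly spread over the lists of origin. Of 339 regions in the wild-type list only, 101 were absent (29.8%, 95% interval 25 to 35%), of 1336 in the POLK-/- list only 180 (13.5%, 11.7 to 15.4%), and of 1113 in both lists 6 (0.539%, 0.198 to 1.17%). Counted by list instead of by region, 107 of 1468 wild-type peaks (7.29%) and 186 of 2451 POLK-/- peaks (7.59%) had no DDX23-/- peak. Nearly all absent regions thus came from peaks that the wild-type and POLK-/- lists did not share with each other.

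The absent share also differed by position within each origin. Away from protein-coding starts, 76 of 125 wild-type-only regions were absent (60.8%, 51.7 to 69.4%), against 25 of 214 at starts (11.7%, 7.70 to 16.8%). For POLK-/- only regions the shares were 99 of 373 (26.5%, 22.1 to 31.3%) and 81 of 963 (8.41%, 6.74 to 10.4%). Regions in both lists were rarely absent in either place, 2 of 401 away from starts and 4 of 712 at them.

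The absent regions were lower in GC content than the kept ones. In the wild-type list alone the median GC content was 56.9% (95% interval 54.3 to 59.7%, n = 101) in absent and 69.8% (68.3 to 70.9%, n = 238) in kept regions. In the POLK-/- list alone it was 57% (56.3 to 58.1%, n = 180) and 64.8% (64.4 to 65.5%, n = 1156). The single absent regions spread widely, from 28.9 to 78.6% in the wild-type list and from 36.6 to 74.4% in the POLK-/- list, so the ranges of absent and kept regions overlapped. CpG dinucleotides, which are depleted in most of the genome but not in promoter CpG islands, stood at a median of 0.47 of the number expected from base composition in absent wild-type-only regions, against 0.87 in kept ones, and at 0.69 against 0.81 in the POLK-/- list. With all origins pooled, the median GC content at protein-coding starts was 63.7% (60.2 to 65.1%) in 110 absent regions. In 1779 kept regions at starts it was 66.3% (65.9 to 66.6%). Away from starts it was 53.9% (52.5 to 55.8%) in 177 absent and 57.7% (56.0 to 59.6%) in 722 kept regions. The pooled kept regions include 1107 found in both lists, where only 6 regions were absent. These gaps therefore cannot be compared with those within an origin, and GC content by position within an origin was not tested. The contrasts in GC content and in the share at gene starts both depend on the length of the DDX23-/- list. When that list was limited to its 2451 peaks with the largest −log10 p, 951 regions were absent. Their median GC content was then 63.6%, against 64.9% in the kept regions. Of these absent regions 66.2% lay at a protein-coding start, against 68.5% of the kept regions.

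**Figure D2:**
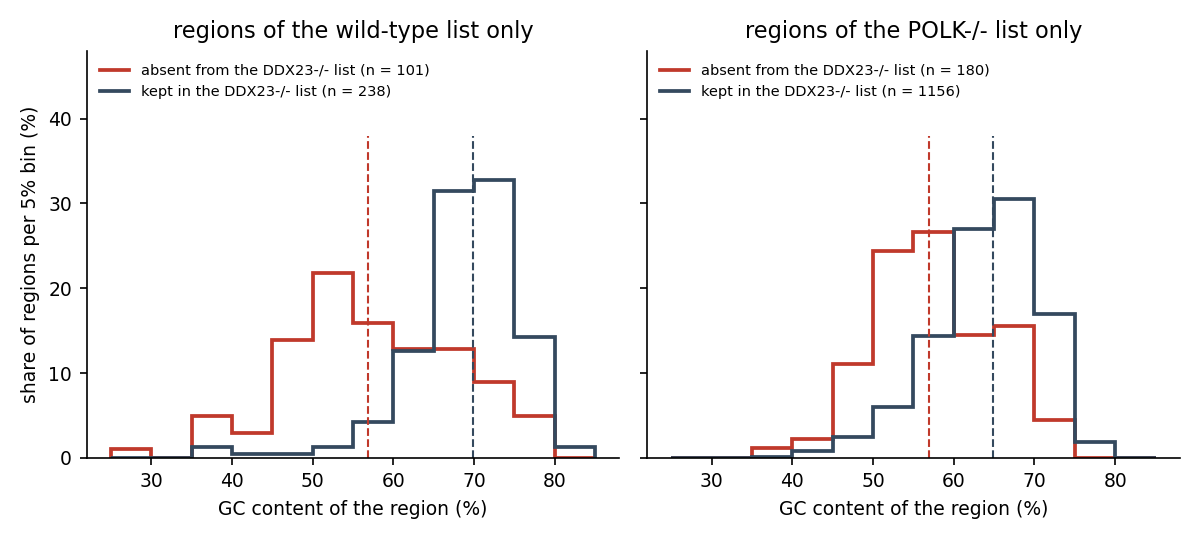
GC content of regions (%, in bins of 5%) as share of regions per bin (%), for regions of the wild-type list only and of the POLK-/- list only, with dashed lines at the medians. The absent regions (red) centre on 56.9% and 57%, the kept regions (dark) on 69.8% and 64.8%, and the curves overlap.

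The absent peaks were weaker on the whole, though less so in the wild-type list. The number of fragments at each summit was recovered from the deposited values with the formulas of MACS2. Absent peaks of the POLK-/- list held a median of 19 fragments (95% interval 19 to 20, n = 186) against 28 (28 to 29, n = 2263 regions) in kept ones, and absent peaks of the wild-type list 12 (11 to 13, n = 107) against 14 (14 to 15, n = 1345). Ranked by −log10 p within its list, the median absent peak stood at the 23.8th percentile of the POLK-/- list and at the 38.5th of the wild-type list. The kept regions of each list include the 1107 shared by both, which were stronger, with medians of 40 fragments in the POLK-/- and 16 in the wild-type list. Among POLK-/- only regions the medians were closer, 19 fragments (19 to 20) in absent and 23 (22 to 23) in kept ones, at the 23.8th and 34.9th percentiles. Among wild-type-only regions the order was the other way: absent ones had a median of 12 fragments (11 to 13) and kept ones 10 (10 to 11). The median width was 255 bp (244 to 272) in absent and 362 bp (355 to 367) in kept regions. Within an origin the widths were closer, 235 bp (232 to 245) against 267 bp (253 to 277) for wild-type-only regions, where the absent ones were the stronger, and 277.5 bp (252 to 287) against 297 bp (291 to 305) for POLK-/- only regions.

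Divided by strength into quintiles, the wild-type list lost 10.2% of its weakest peaks, 8.50%, 10.2% and 6.80% in the next quintiles, and 0.680% (2 of 294) in the strongest. The POLK-/- list lost 16.1, 10.6, 5.31, 3.47 and 2.44% from weakest to strongest. Away from protein-coding starts the absent share was higher in every quintile of both lists. In the middle quintile of the wild-type list it was 32.9% (26 of 79; 22.7 to 44.4%) against 1.87% (4 of 214; 0.512 to 4.72%) at starts, and in the second strongest quintile of the POLK-/- list 10.7% (13 of 121) against 1.08% (4 of 369). In the strongest quintile of the wild-type list the counts were 2 of 204 and 0 of 90, the latter allowing a share of up to 4.02%.

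**Figure D3:**
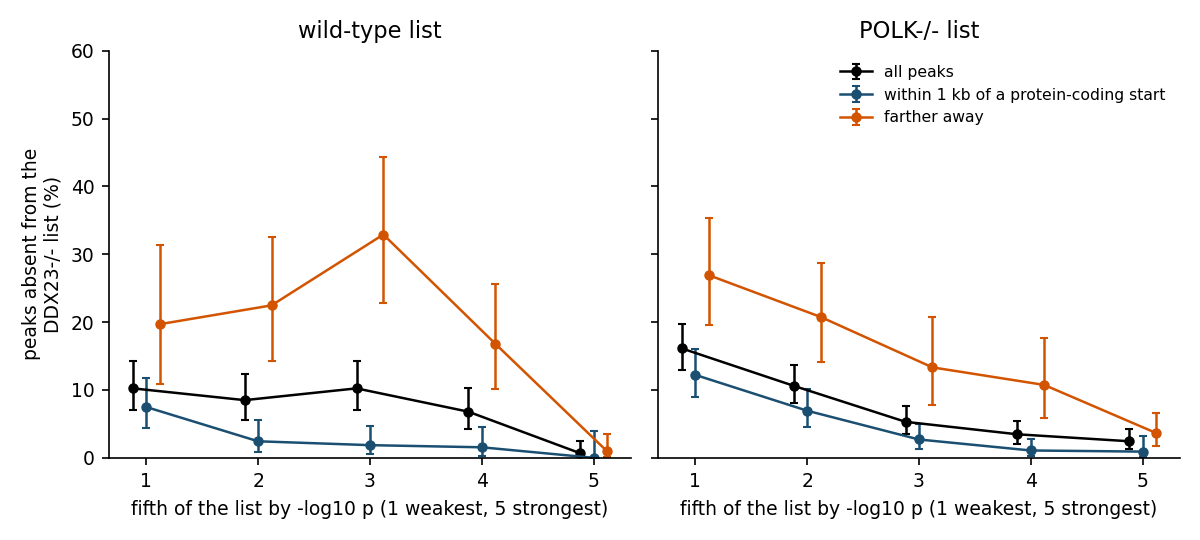
Share of peaks absent from the DDX23-/- list (%) in each quintile of the wild-type and POLK-/- lists by −log10 p, for all peaks and for peaks within 1 kb of a protein-coding start or farther away, with exact 95% intervals. Peaks away from starts lie above those at starts in every quintile, and the strongest quintiles hold 0.680% and 2.44% absent peaks.

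Repeated sequence was more frequent in the absent regions. Each 201-bp window at a summit was cut into words of 31 bases, and a word was called repeated when it occurred elsewhere in the genome on either strand. Over 50% of the words were repeated in 63 of 287 absent regions (22%, 17.3 to 27.2%), in 73 of 2501 kept regions (2.92%, 2.29 to 3.66%) and in 63 of 3447 DDX23-/- only peaks (1.83%, 1.41 to 2.33%). Of the regions over this limit, 15 of 16 in the wild-type list alone were absent, 46 of 95 in the POLK-/- list alone and 2 of 25 in both. Among regions with no repeated word 157 of 2127 (7.38%) were absent, with 56 of 275 (20.4%) in the wild-type list alone and 97 of 1096 (8.85%) in the POLK-/- list alone, so unique sequence held most absent regions. Reads from repeated sequence cannot always be placed at 1 position. Bowtie2 in its default configuration reports 1 of the best positions of such a read. The methods of the study name that configuration for ChIP-Seq of DNA polymerase kappa, without mention of these libraries. Whether reads with several positions were removed before peaks were called is not given in the sources used here.

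Aligned with one another (at least 100 bp at 80% identity or more), 78 absent regions fell into 6 families. The largest family, with 41 regions on 19 chromosomes and contigs, resembles Alu elements, the most common short interspersed repeats of primates. Its members had a median of 18 fragments, 16 came from the wild-type list and 25 from the POLK-/- list, and 6 lay at a protein-coding start. In the genome 713082 alignments to the strongest member were found, and these are counted as its copies. Such copies touched 54 wild-type peaks (3.68%), 151 POLK-/- peaks (6.16%) and 193 DDX23-/- peaks (3.25%). Among merged regions they touched 40 of the 287 absent and 126 of the 2501 kept ones. The absent count and the shares of the lists are partly fixed, because the family was built from absent regions and the aligned sequence was one of them. No contrast between the lists can be read from these shares.

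A family of 10 and a family of 3 regions, both found in the POLK-/- list only, resemble the 5′ end of L1, the long interspersed element that still moves in the human genome. Their members were weak, with 13 to 20 and 13 to 23 fragments. On copies of these families the DDX23-/- list had 17 peaks and the POLK-/- list 18 for the family of 10, or 0.286% and 0.734% of each list, and 14 and 13 for the family of 3, or 0.235% and 0.530%. Of these DDX23-/- peaks 9 and 8 lay at copies with no peak in the other lists. Of the merged regions on a copy 11 were absent and 8 kept for the former, and 8 absent and 5 kept for the latter. The families were built from absent regions only and the copies were sought with an absent region. These absent counts and the shares of the lists are therefore partly fixed by that choice. Neither an absent share nor a contrast between the lists can be read from them. The 2 families are copies of neighboring stretches, so their counts share peaks. Another family was a pair of POLK-/- only regions on chromosome 17 at starts of SNORD3B-1, a U3 small nucleolar RNA gene, and of ENSG00000262202, with 16 and 22 fragments. A further pair lay on chromosome 19. One was at the start of CGB1, a chorionic gonadotropin beta gene, with 60 fragments. The other lay between genes, 41818 bp from the start of BSPH1, with 47.

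Of the motifs searched on both strands within 100 bp of the summit, 3 that are known from promoters are given here, and others were more frequent in absent regions or are not reported. GGGCGG, the GC box bound by SP and KLF factors, was rarer in absent regions, 27.7% against 68.5% in the wild-type list and 32.8% against 54.2% in the POLK-/- list. The B box of tRNA-type promoters was in 0 of 287 absent regions, which allows a share of up to 1.28%, and in 154 of 2501 kept regions (6.16%). However, 146 of these 154 were in both lists, where only 6 regions were absent, and the kept regions of a single list held it in 0 of 238 (wild-type) and 8 of 1156 (0.692%, POLK-/-), so a difference within an origin was not detectable. CCGGAAGT, the ETS motif, was in 5 of 180 absent POLK-/- only regions (2.78%, 0.908 to 6.36%) and 7.87% of the kept ones (6.39 to 9.58%), and in 0 of 101 (up to 3.59%) and 5.46% (2.94 to 9.16%) for the wild-type list. A match says only that the letters are present, and the part of GC content in these shares was not tested.

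The strongest absent regions of the wild-type list were of several kinds. The first was on the unplaced contig GL000220, with 202 fragments over a background of 58.1. Next came chr11:3235862-3236111 (26 fragments, a fold over background of 16 as deposited, with 1 added to both terms), 4062 bp from the start of MRGPRG, an orphan receptor gene, and chr7:52370723-52370982 (24 fragments), far from any gene, with POM121L12 starting nearest. BSG, the gene for basigin, had a region of the Alu-like family inside BSG-AS1 (23 fragments), and PASD1, a cancer-testis antigen gene, had one 542 bp from its start (22 fragments). Modest counts over a low background stand beside high counts over a high background in this ranking: chr1:121484383-121485409 and chr7:61968766-61969681 had 456 and 453 fragments over 276 and 275, a deposited fold of only 1.65 and 1.64. Their nearest protein-coding starts were those of FAM72B, 647459 bp from the summit on chromosome 1, and of ZNF722. The remaining of the 10 were chr18:76803165-76803431 near ATP9B and chr20:61073984-61074298 near GATA5, with 17 fragments each, and a second region of GL000220 with 26.

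The contig GL000220, which carries a copy of the ribosomal DNA repeat, was where absence was densest: 6 of its 7 regions were absent (85.7%, 42.1 to 99.6%), all in the wild-type list only. Apart from the 26-fragment region their background was between 46.6 and 69.1 fragments, with deposited folds of 1.64 to 3.44. The DDX23-/- and POLK-/- lists shared 1 peak on the contig, of 357 and 222 fragments, at another position. Regions beside large assembly gaps were also more frequent, 9 of 287 absent (3.14%, 1.44 to 5.87%) and 13 of 2501 kept (0.520%, 0.277 to 0.887%) within 1 Mb of a gap of at least 1 Mb. One of these, on chromosome 16, had 109 fragments over 22.6 in the POLK-/- list, and every word at its summit was repeated. The nearest protein-coding start, that of SHCBP1, was 249889 bp away.

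In the POLK-/- list 1 of the strongest absent regions, with 89 fragments and a fold of 16.6, lay in an intron of the long noncoding RNA gene PTCSC2, 40012 bp from the nearest DDX23-/- peak, and held no repeated word. Among the 10 strongest were also those at CGB1 (60 fragments) and at TERF1P4 on the X chromosome (53 fragments, fold 20.8), a pseudogene of the telomere protein gene TERF1. TERF1P4 had the lowest GC content of the POLK-/- only absent regions, 36.6%.

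Of the 6 absent regions in both lists, 4 lay at promoters, of GBE1 (glycogen branching enzyme), THRB (a thyroid hormone receptor), SLC35D1 (a nucleotide sugar transporter) and FAM43A. Their counts were 11, 14, 8 and 9 fragments in the wild-type list and 20, 18, 21 and 17 in the POLK-/- list. All were below the POLK-/- list median of 27 fragments. In the wild-type list THRB stood at the list median of 14 and the others below it.

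The 110 absent regions at protein-coding starts touched few of the 15 gene groups examined. Cytosolic ribosomal protein genes had 3 absent (among them RPS25 and RPSA) and 21 kept regions, mitochondrial ribosomal protein genes 2 (MRPL1 and the shared start of MRPL46 and MRPS11) and 19, and DEAD-box and DEAH-box helicases 2 (DDX17 and DHX36) and 11. The 2 helicases unwind RNA, and DHX36 also unwinds guanine quadruplexes. They had 20 and 23 fragments in the POLK-/- list. Spliceosome genes, the pathway of DDX23, had 1 absent region, at LSM7 (18 fragments), and 25 kept ones, or 3.85% absent (0.0973 to 19.6%). HOX genes had 1 of each, the absent one at HOXB13 with 14 fragments. RNA polymerase subunits had 10 kept regions and 1 absent, whose match was by name only, to POLR1HASP, an antisense RNA. No absent region was found for 47 regions at zinc finger genes, which allows an absent share of up to 7.55%, nor for 32 at respiratory chain, 19 at translation factor, 18 at DNA replication and translesion synthesis, 15 at heat shock, 12 at proteasome, 10 at aminoacyl-tRNA synthetase, 4 at histone and 3 at small nucleolar RNA host genes. Of all regions at protein-coding starts 5.82% were absent, and the 95% interval of each of the 15 groups includes this share.

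No absent region lay within 10 kb of POLK or DDX23 themselves. The nearest peak to the POLK start (chr5:74807670-74905816) was 73 bp away in the wild-type list and 84 bp in the DDX23-/- list, with 9 and 29 fragments, and 174876 bp away in the POLK-/- list. The nearest peak to the DDX23 start (chr12:49223539-49246625) was 569 bp away in the DDX23-/- list, with 24 fragments, and 12820 and 12884 bp away in the wild-type and POLK-/- lists.

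Absence varied by chromosome. It was 28% on chromosome 18 (7 of 25, 12.1 to 49.4%), 23.3% on X (14 of 60, 13.4 to 36.0%), 19.8% on 3 (32 of 162, 13.9 to 26.7%), 19.7% on 20 and 19.0% on 4 (15 of 79, 11 to 29.4%), and 4.28% on chromosome 1 (14 of 327, 2.36 to 7.08%), 5.17% on 5 and 5.28% on 6. At protein-coding starts alone chromosomes 18, X, 3 and 4 also stood highest, at 17.6, 16.2, 13.6 and 12.9%. All 15 absent regions of chromosome 4 were POLK-/- only, and this chromosome had 74 POLK-/- peaks and 20 wild-type peaks. On chromosome 3 the POLK-/- only regions were 20 of the 32 absent ones, close to the 180 of 287 among all absent regions. The number of DDX23-/- peaks for each POLK-/- peak, 2.43 in all, was 1.74, 1.81 and 1.84 on chromosomes 3, 6 and 4, of which 6 had a low absent share, and 3.52 and 3.72 on X and 18. The part of chromosome-wide differences between the lists in the absent share was not tested.

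**Figure D4:**
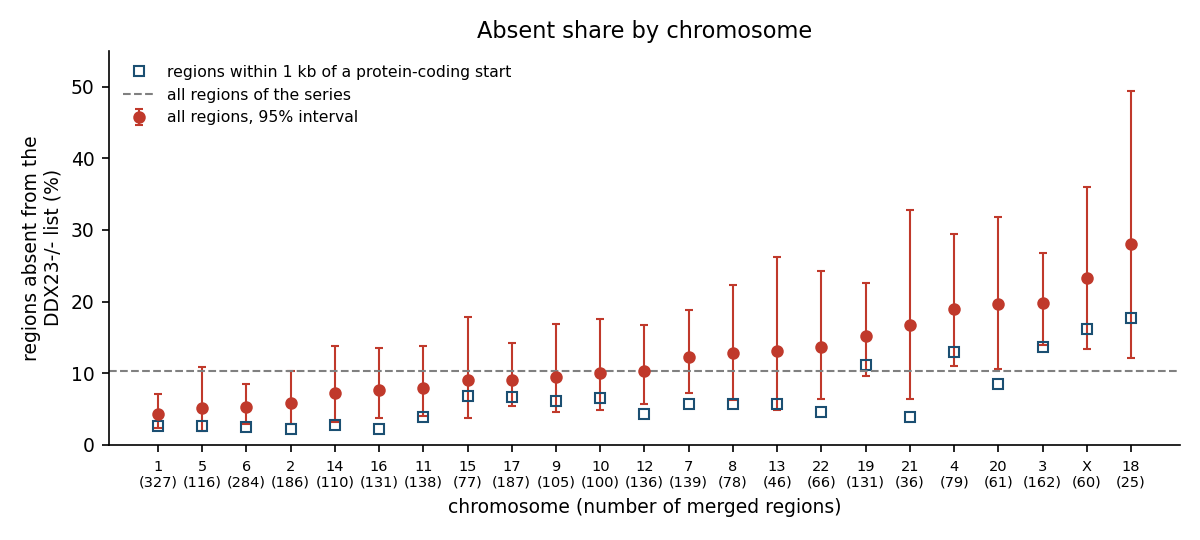
Share of merged regions absent from the DDX23-/- list (%) by chromosome, in rising order, with exact 95% intervals, and the same for regions within 1 kb of a protein-coding start (squares). Values run from 4.28% on chromosome 1 to 28% on chromosome 18, around the 10.3% of all regions (dashed line).

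The median distance from an absent region to the nearest DDX23-/- peak was 68426 bp. Kept regions overlap such a peak by the rule and other positions were not measured. Whether this distance is large or small for the genome was therefore not tested. A DDX23-/- peak lay within 1000 bp of 23 of them (8.01%) and within 10000 bp of 52 (18.1%). The nearest were at PYGL (21 bp), STK35 (35 bp), MTFR1L (43 bp), MTIF3 (121 bp) and CALR3 (136 bp), all at gene starts. On the other side of the rule the shortest overlaps of kept regions were at SYNRG (25 bp), TFCP2 (55 bp), LINC00910 (55 bp), ATP13A1 (59 bp) and CAPG with SH2D6 (59 bp).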

How the data were processed

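ChIP-Seq peaks of HEK293T cells were analysed as deposited, 1 list each for R_ libraries of wild-type, POLK-/- and DDX23-/- cells. The submitters' processing notes name Bowtie2, MACS2, bedtools, deepTools and hg19, without versions or order. For ChIP-Seq of DNA polymerase kappa the methods of the study give Bowtie2 with default settings and removal of duplicates with Picard. They do not mention the libraries used here, so it is uncertain whether these steps apply to them. Threshold, control and pooling are not given in the sources used here. The authors deposited for each peak a fold (ratio with 1 added to both terms), −log10 p, −log10 q and a score of 10 times the −log10 q. Other libraries were not used. Total reads are unknown.

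Fragments and background were solved from the deposited fold and −log10 p by the MACS2 formulas (relative tolerance of p 0.0001). A solution was found for all 1468, 2451 and 5945 peaks. The solving recovered 100% of the fragments in simulated wild-type and POLK-/- lists and 98.8% in a simulated DDX23-/- list. The simulated lists were made with the same formulas, so they check the solving only and not whether the deposited peaks follow the formulas. Lists start at 6, 10 and 14 fragments. Sequence was read from GRCh37, and genes from GENCODE 44 placed on it (none on unplaced contigs). Families were sought with blastn 2.17.0. Shares have exact (Clopper-Pearson) and medians order-statistic 95% intervals (scipy 1.17.1), without a test. Named regions are the 10 strongest of each origin, members at starts of the listed gene groups, POLK, DDX23, and the 5 nearest either side of the rule. The other members of sequence families and the chromosome 16 region with SHCBP1 as its nearest protein-coding start were named after their values were seen. Members and lists were chosen with earlier results of these data known, and the family and repeated-word analyses after the data were seen. One of the sequence families, its members and its motifs are not reported here. Alternatives are given in the closing section.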

Additional observations from a re-analysis of the deposited data

How the results depend on the processing

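No paired analysis was possible because each genotype has 1 list, and for the same reason no replicate could be left out. Of 80 recalculated values, 53 stayed within 1.5 times the count or within the 95% interval. Absent regions had a lower GC content, a lower share at gene starts and a smaller median width than kept ones under every alternative in which the 2 were compared, that is all but the single-list ones. With the limited DDX23-/- list, however, the contrasts in GC content and gene starts were small, and the intervals at gene starts overlapped. With the DDX23-/- list limited to the length of the POLK-/- list, 951 regions were absent, including all 287. The absent shares became 66.7% of wild-type-only, 46.6% of POLK-/- only and 9.16% of shared regions. Gene starts then held 66.2% (63.1 to 69.2%) of absent and 68.5% (66.4 to 70.7%) of kept regions. The median GC content was 63.6% in absent and 64.9% in kept regions. The widths were 277 and 402 bp, and the wild-type strength percentile was 26.8. With wild-type peaks alone 107 were absent, and with POLK-/- peaks alone 186. With only peaks of q 1e-05 or less, 10.4% of POLK-/- only regions were absent, 30.8% of absent regions lay at starts, the GC medians were 55 and 64.4%, the kept width was 376.5 bp, the strength percentiles were 47.3 and 37.5, and POLK-/- fragments had a median of 21. Shares at starts of absent and kept regions were 48.4 and 76.3% within 5 kb, 47.7 and 80.5% for all genes, and 49.5 and 81.4% for all transcripts of protein-coding genes. Within 100 bp of the summit the kept GC median was 65.7%. With a looser alignment limit of 60 bp, chosen after seeing the data, 98 absent regions formed 8 families, the largest of 63. Total reads are unknown, and the weakest wild-type, POLK-/- and DDX23-/- peaks by count held 6, 10 and 14 fragments.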
